A study of Homo sapiens with 3 samples.

Results

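The genes examined here encode the classical ligands and receptors of axon guidance. They are the protein-coding genes whose RefSeq symbol starts with EPHA, EPHB, EFNA, EFNB, SEMA, PLXN, SLIT (SLIT1 to SLIT3), ROBO, UNC5 or NTN, together with DCC, NRP1 and NRP2. The choice by symbol gave 74 of the 20037 protein-coding genes on the main chromosomes. Of these, 37 encode ligands (ephrins, semaphorins, Slits, netrins and netrin-Gs) and 34 encode receptors (Eph receptors, plexins, neuropilins, Robos, UNC5A to UNC5D and DCC). The other 3 were assigned to neither class: the readthrough locus EFNA4-EFNA3, UNC5CL, and UNC50, which shares the first letters of its symbol with the UNC5 receptors but is not one of them.

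Growing axons steer by reading cues in their surroundings through receptors on the growth cone. Ephrins are bound to the membrane of neighbouring cells and signal through the Eph receptor tyrosine kinases, semaphorins act through plexins, with neuropilins as coreceptors for the secreted class 3 members, Slits repel axons through Robo receptors, and netrins attract through DCC or repel through UNC5 receptors. The same families act again when synapses and dendrites form, and a neuron may make both a cue and the receptor for another.

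The study profiled open chromatin by ATAC-seq, in which a transposase cuts accessible DNA, as part of work on the regulatory elements of the tau gene MAPT in neurons made from human stem cells. The samples were 3 biological replicates of 1 group: neurons at day 14 of differentiation from KOLF2.1J-hNGN2, an established line of induced pluripotent stem cells (KOLF2.1J) with human NGN2, a proneural transcription factor that drives conversion to neurons. There was no untreated, undifferentiated or second-line group, so every value belongs to this line at this time. The deposited result is 1 list of accessible intervals for all 3 samples together, with no value for any single replicate, so no spread between replicates can be given and no difference between sets of genes was tested. Genes are not replicates, and ligands, receptors and all protein-coding genes are set side by side as descriptions.

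The list held 145092 summits in 65234 distinct intervals that covered 61.2 Mb. The fold enrichment of each summit over its local background, a ratio that is the authors' own value, ranged from 1.29 to 31.9, and the tag counts recovered from the deposited values ranged from 58 to 3783 with a median of 189. Intervals on tag counts below are 95% Poisson intervals, which cover counting error only, since amplified reads without molecular identifiers are not independent molecules. The labelled cell type was checked on marker genes. A summit lay within 1 kb of an outer end, as in 68.8% of all protein-coding genes, in 11 of 13 neuronal markers (ELAVL4 and RBFOX3 lacked one), in 6 of 6 neural progenitor markers, in 4 of 7 glial markers, and in 1 of 6 pluripotency markers, LIN28A. Of the 8 markers of other tissues, 0 had one, which allows a share of up to 37.5%. The glial share lay below that of all protein-coding genes, but the lists are short. The 95% Wilson intervals of the neuronal, progenitor and glial shares all span 68.8%, so none of these shares is shown to differ from that of all protein-coding genes. The ends of all 6 progenitor markers were accessible beside those of neuronal genes, and the part of progenitors in the values below was not tested.

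Most axon guidance genes were accessible at an end. A summit lay within 1 kb of an outer end of 65 of the 74 genes (87.8%, 95% Wilson interval 78.5 to 93.5%), against 68.8% of all protein-coding genes. Such an end was found in 32 of 37 ligand genes (86.5%, 72.0 to 94.1%) and in 31 of 34 receptor genes (91.2%, 77.0 to 97.0%), and these intervals overlap. The high share did not extend to strong intervals. The median fold enrichment over all 65234 intervals was 5.60. When only intervals above this median were counted, 55.4% of the axon guidance genes kept an accessible end, against 58.1% of all protein-coding genes. Among the 63 genes with a strand in the RefSeq promoter table, the end at the start of the gene was accessible in 53 (84.1%, against 68.8% of all protein-coding genes with a listed strand), and the far end in 10 (15.9%, against 9.25%). This end is the boundary of the gene and not always a listed start. EPHB6, PLXNB2 and SEMA4D are among the 53, but their only listed starts, 7.68, 5.98 and 2.46 kb inside, had no summit within 1 kb. Long genes had accessible ends more often in general. By class, an accessible end was found in 16 of 22 axon guidance genes under 20 kb (57.1% of all protein-coding genes), 11 of 12 from 20 to 50 kb (75.4%), 7 of 7 from 50 to 100 kb (78.5%), 15 of 17 from 100 to 300 kb (81.4%) and 16 of 16 over 300 kb (85.0%).

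Some accessible ends lay beside an end of another gene. In 9 of the 65 genes an accessible end lay within 1 kb of an end of another protein-coding gene (13.8%, against 26.9% of all protein-coding genes with an accessible end), and in 17 within 1 kb of an end of any other annotated gene (26.2%, against 44.2%). The 10 genes with summits at both ends made up 13.5% of the set, against 6.7% of all protein-coding genes.

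Although usually present, the intervals at these ends were modest. Their median fold enrichment was 6.80 (quartiles 5.06 and 8.79), against 10.5 (7.08 and 13.4) over all protein-coding genes with an accessible end. Of the 65 genes, 58 lay below that all-gene median, where 50.0% of protein-coding genes lie by construction, and 37 lay below its lower quartile. The medians were 6.12 in the 32 ligand genes and 6.91 in the 31 receptor genes. Tag counts were also lower, with a median of 623 against 949, and medians of 457.5 in ligand genes and 634 in receptor genes. The local background behind the ratio was close, 88.7 against 86.6 tags, and the intervals had a median width of 1428 bp against 1319 bp. The lower fold enrichment held in each class of gene length: the median was 5.73 against 10.2 under 20 kb and 7.60 against 8.43 over 300 kb.

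**Figure D1:**
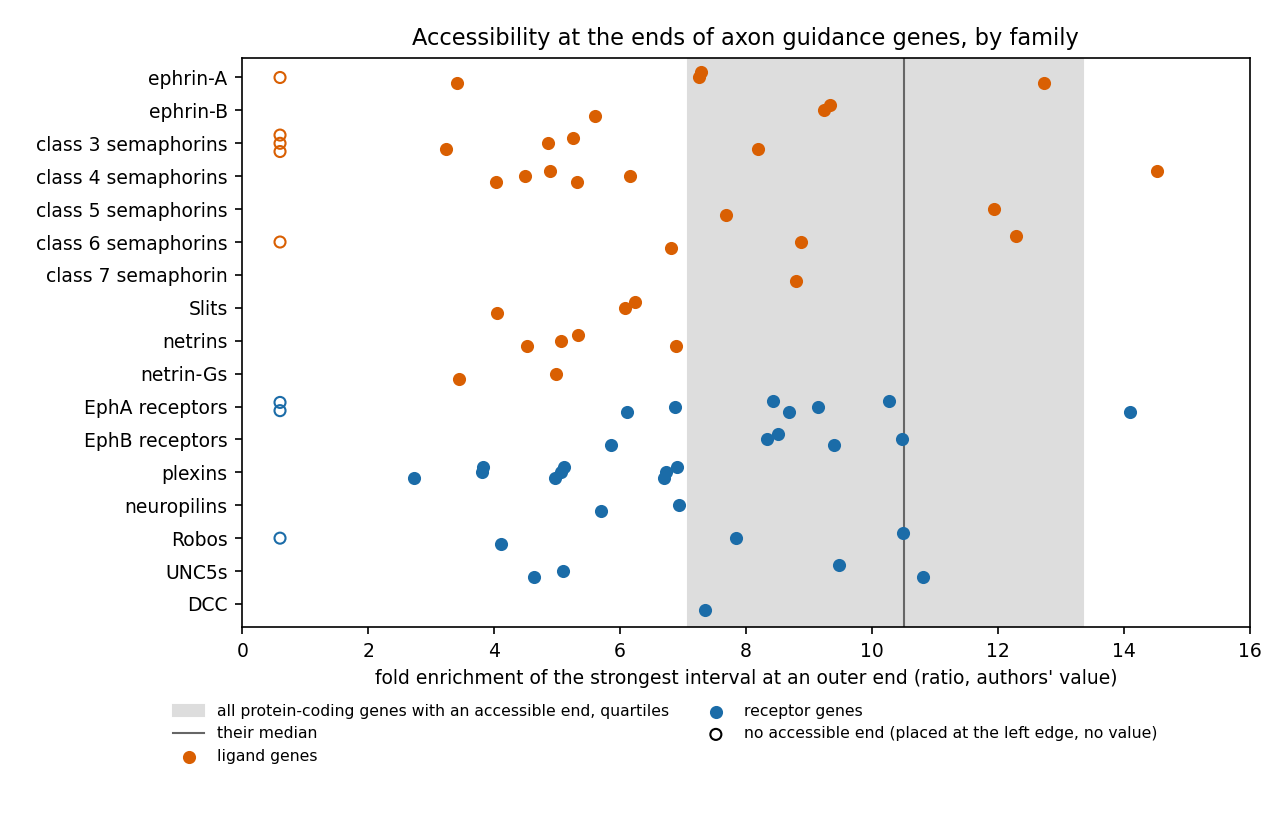
Fold enrichment (ratio, horizontal axis) of the strongest interval at an outer end of each axon guidance gene, 1 point per gene, by family, with ligands in orange and receptors in blue. The grey band spans the quartiles of all protein-coding genes with an accessible end and the line marks their median of 10.5; open circles at the left edge are genes with no accessible end, and most points lie left of the line.

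The 12 Eph receptor genes with an accessible end had a median fold enrichment of 8.60, and the 7 ephrin genes 7.29. EPHA3, a receptor for the A-type ephrins, had 14.1-fold enrichment and 927 tags (95% Poisson interval 868 to 989), the highest of all receptor genes. Among the other Eph receptor genes, EPHB3 had 10.5-fold enrichment with 2305 tags and EPHA7 10.3-fold with 2110 tags. The lowest values were 6.11 at EPHA2 in the EphA family and 5.86 at EPHB6, a receptor without kinase activity, in the EphB family. The EPHB6 value is that of its outer end, and its only listed start had no summit within 1 kb. EPHA1 and EPHA8 had no summit near an end, with the nearest at 7.89 kb and 8.59 kb. Among the ligands, the membrane-spanning EFNB2 had 9.34-fold enrichment with 2249 tags and EFNB3 had 5.60. The lipid-anchored EFNA1 was listed at 12.7, but that interval lies at its shared end with SLC50A1, and the interval at the start of EFNA1 itself had 3.02-fold enrichment and 178 tags. EFNA3 had the lowest value of the accessible ephrins at 3.41, and EFNA2 had no summit within 1 kb of its outer ends, the nearest being at 1291 bp.

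Plexins had the lowest median of the receptor families, 5.06. All 9 plexin genes and both neuropilin genes had an accessible end, yet each of these 11 lay below the lower quartile of all protein-coding genes, with a median of 5.11. PLXND1, the receptor that class 3 semaphorin SEMA3E can bind without a neuropilin, had the lowest end of the whole set at 2.72-fold with 215 tags (187 to 246). PLXNA2 was the highest plexin at 6.91-fold with 861 tags. The accessible outer end of PLXNA4, at 5.11-fold, was its far end. NRP2 had 6.94-fold and 810 tags, and NRP1 5.70-fold and 634 tags.

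Semaphorin genes ranged widely. SEMA4F, a membrane-spanning class 4 member, had the highest fold enrichment of the set at 14.5 with 1921 tags, while the other 5 class 4 genes ranged from 4.03 at SEMA4A to 6.15 at SEMA4B. SEMA6C had 12.3-fold and SEMA6D 6.80-fold enrichment in class 6, whose products bind class A plexins. SEMA5A was listed at 11.9, at its far end, which it shares with the noncoding gene SNHG18; at its start the value was 7.39. SEMA5B had 7.68, and SEMA7A, the lipid-anchored ligand of PLXNC1, had 8.79. Of the secreted class 3 genes, 4 of 7 were accessible at an outer end, and 6 of 7 when listed inner starts are counted. Among these 4, SEMA3B had 8.19-fold enrichment at an end within 1 kb of GNAI2, and SEMA3A, the repellent that collapses growth cones, had 3.23-fold with 101 tags. SEMA3C, SEMA3D and SEMA3G lacked a summit within 1 kb, with the nearest at 2728, 4930 and 1903 bp. SEMA6B also lacked one, with its nearest summit at 7274 bp.

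All 3 Slit genes and all 6 netrin and netrin-G genes had an accessible end, and all 9 lay below the lower quartile of all genes. SLIT2 had 6.08-fold enrichment, SLIT3 6.24 and SLIT1 4.05. The interval over the start of SLIT2 ran over 3886 bp with 12 summits, and it was the widest of all 65234 intervals. NTN1, which encodes the main attractant read by DCC, had the highest netrin value at 6.89 and NTN5 the lowest at 4.52, at its far end, with no summit at its listed start. The netrin-Gs, which are anchored to the membrane and do not bind DCC, had 4.99 at NTNG1 and 3.44 at NTNG2. Their receptors were higher in part. DCC had 7.36-fold enrichment with 736 tags, UNC5B 10.8-fold with 1451 tags and UNC5C, the lowest of the UNC5 receptors, 4.64-fold with 621 tags. In the Robo family ROBO2 had 10.5-fold with 530 tags, ROBO1 7.84-fold with 625 tags, and ROBO3, which controls midline crossing of commissural axons, 4.11-fold with 314 tags. ROBO4, known from blood vessel endothelium, had no summit within 1 kb, but its nearest lay just outside, at 1138 bp. UNC50 had 13.3-fold enrichment at an end shared with COA5, and UNC5CL had its nearest summit at 1273 bp. The gene closest to the limit on the inner side was SEMA4A at 926 bp.

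Several of these genes are transcribed from more than 1 start, and the outer ends do not show all of them. The RefSeq promoter table (GRCh38.p14) listed 97 starts for 63 of the 74 genes. A summit lay within 1 kb of 77 (79.4%, against 69.1% of all listed starts of protein-coding genes), and among the 35 starts more than 1 kb inside the outer start, 22 were accessible. Of the 22 genes with several starts, 13 had a summit at each listed start and 9 at some of them. The same shares over all protein-coding genes were not determined for inner starts or for genes with several starts. These 2 counts therefore do not show whether the set is unusual. Of 16 genes with an accessible start more than 1 kb inside, 6 had the higher fold enrichment at the outer start, 3 at the inner start, 3 had 1 interval over both, and 4 had no summit at the outer start. The outer start here means the outer end of the gene on its start side. In ROBO2, SEMA4A, SEMA3D, EFNA2 and PLXNA4 no listed start lies there, so for these genes a gene boundary is set beside a listed start. The 3 with a stronger inner start were ROBO1, ROBO3 and SEMA4B. ROBO1 had 7.84-fold enrichment at its outer start and 10.2-fold, with 955 tags (895 to 1018), at a start 749 kb inside the gene. ROBO3 had 4.11 at its outer start and 8.02 at 10.8 kb, and SEMA4B 6.15 and 9.10. In ROBO2 the outer end was the stronger, with 10.5 against 3.73 at 404 kb and 6.53 at 1133 kb. The outer start was also the stronger in EPHA7 (10.3 against 2.51), SEMA3B (8.19 against 5.44), SEMA5B (7.68 against 5.76), SEMA6D (6.80 against 4.98) and SEMA4A (4.03 against 2.89). SEMA3C, SEMA3D and EFNA2, which had no accessible outer end, had accessible inner starts: 12.3-fold with 935 tags at 3.34 kb, 10.1-fold with 1244 tags at 63.2 kb and 3.56-fold with 248 tags at 1.65 kb. The inner start of PLXNA4 had 4.46-fold enrichment at 72.2 kb. For SEMA3D, EFNA2 and PLXNA4 the inner start is the only start listed, so these values do not compare alternative starts. Counted by any listed start, ligand genes were accessible in 90.0% and receptor genes in 83.3%, against 72.3% of all protein-coding genes with a listed start, and the order of ligands and receptors was the opposite of that by outer ends.

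The sequences below are the 250 bases before 8 starts, from the RefSeq promoter table with GRCh38.p14 coordinates, each read 5′ to 3′ on the strand of the gene. They were chosen to show the start with the highest fold enrichment among receptor genes (EPHA3), the paired starts of ROBO1 and SEMA3C, the start under the widest interval (SLIT2), the end with the lowest fold enrichment (PLXND1), and a CpG-rich start without a summit (EPHA8). Capitals mark the words searched on both strands, CANNTG (E-box, which includes CAGATG, a form that neurogenins bind), GGGCGG (GC box), CCAAT (bound by NF-Y), TATAAA (a core promoter element) and TGACGTCA (cAMP response element), and words that touch or overlap run together.
EPHA3, chr3:89107371-89107620, plus strand: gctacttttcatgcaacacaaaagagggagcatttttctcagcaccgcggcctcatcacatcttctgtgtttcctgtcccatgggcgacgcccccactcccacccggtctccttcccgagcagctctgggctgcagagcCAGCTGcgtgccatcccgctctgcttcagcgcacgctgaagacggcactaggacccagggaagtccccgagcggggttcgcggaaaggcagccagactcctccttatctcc
ROBO1 outer start, chr3:79767999-79768248, minus strand: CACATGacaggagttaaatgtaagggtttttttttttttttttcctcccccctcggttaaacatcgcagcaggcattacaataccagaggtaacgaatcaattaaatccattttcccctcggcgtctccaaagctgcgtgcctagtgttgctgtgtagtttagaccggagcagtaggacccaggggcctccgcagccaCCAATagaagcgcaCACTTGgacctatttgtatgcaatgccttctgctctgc
ROBO1 inner start, chr3:79019460-79019709, minus strand: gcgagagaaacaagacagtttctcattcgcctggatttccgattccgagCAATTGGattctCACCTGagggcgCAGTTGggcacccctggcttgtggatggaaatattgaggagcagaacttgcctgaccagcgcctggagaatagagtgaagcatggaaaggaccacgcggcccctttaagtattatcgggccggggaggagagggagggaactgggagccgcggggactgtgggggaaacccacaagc
SEMA3C outer start, chr7:80922390-80922639, minus strand: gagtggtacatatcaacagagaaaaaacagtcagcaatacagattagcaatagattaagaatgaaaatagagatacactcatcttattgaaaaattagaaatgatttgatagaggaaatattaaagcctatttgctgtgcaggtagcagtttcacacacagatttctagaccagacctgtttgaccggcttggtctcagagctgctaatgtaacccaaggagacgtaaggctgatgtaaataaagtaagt
SEMA3C inner start, chr7:80919052-80919301, minus strand: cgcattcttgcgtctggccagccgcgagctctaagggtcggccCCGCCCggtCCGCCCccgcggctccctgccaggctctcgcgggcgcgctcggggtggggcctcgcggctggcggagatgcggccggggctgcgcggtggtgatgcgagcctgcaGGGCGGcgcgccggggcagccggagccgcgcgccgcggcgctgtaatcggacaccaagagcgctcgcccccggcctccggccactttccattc
SLIT2, chr4:20251655-20251904, plus strand: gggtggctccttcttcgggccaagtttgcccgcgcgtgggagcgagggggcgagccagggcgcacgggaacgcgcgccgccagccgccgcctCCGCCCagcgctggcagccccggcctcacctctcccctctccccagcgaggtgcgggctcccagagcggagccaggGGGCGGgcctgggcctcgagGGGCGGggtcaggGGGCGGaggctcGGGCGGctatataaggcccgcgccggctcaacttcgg
PLXND1, chr3:129606677-129606926, minus strand: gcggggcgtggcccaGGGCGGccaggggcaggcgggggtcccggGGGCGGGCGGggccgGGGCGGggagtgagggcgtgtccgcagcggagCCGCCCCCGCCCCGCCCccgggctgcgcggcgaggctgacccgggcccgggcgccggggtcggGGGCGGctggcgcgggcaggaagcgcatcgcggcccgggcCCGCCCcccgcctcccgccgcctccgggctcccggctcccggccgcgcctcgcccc
EPHA8, chr1:22563239-22563488, plus strand: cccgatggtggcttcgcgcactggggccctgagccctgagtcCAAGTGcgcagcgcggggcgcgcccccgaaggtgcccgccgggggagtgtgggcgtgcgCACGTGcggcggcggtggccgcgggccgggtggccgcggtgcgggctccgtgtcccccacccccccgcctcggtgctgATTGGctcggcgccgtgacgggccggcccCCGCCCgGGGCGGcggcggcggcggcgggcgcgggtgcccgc

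The start of EPHA3 had 61.2% G and C with 15 CpG and 1 E-box. The inner start of SEMA3C had 39 CpG and 3 GC boxes in these 250 bases and was accessible, whereas its outer start had 2 CpG and 36.4% G and C and was not. The ROBO1 starts, both accessible, carried 9 CpG at the outer and 12 at the inner start, with 2 and 3 E-boxes. EPHA8 showed that a CpG-rich sequence was not always accessible here, with a ratio of observed to expected CpG of 0.978.

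CpG content separated accessible from other starts in this set much as it did across the genome. Starts were counted as listed, so the start that EFNA4 shares with EFNA4-EFNA3 counts for both. Close starts, as in EPHB2 and SEMA3B, overlap in sequence. In the 300 bases from 250 before to 50 after the start, 67 of the 97 starts had a ratio of observed to expected CpG of at least 0.6, and 65 of these were accessible (97.0%, against 91.9% of such starts in all protein-coding genes). The exceptions were EPHA1 and EPHA8, so all 31 such ligand starts and 32 of 34 receptor starts were accessible. Below that ratio, 12 of 30 were accessible (40.0%, against 31.6%). The lower fold enrichment was seen among the CpG-rich starts as well, with a median of 6.80 against 11.0. The GC box was found in 73.2% of the 97 starts and in 56.3% of all 22199 listed starts, any E-box in 59.8% against 65.1%, CAGATG in 8.25% against 12.2%, CCAAT in 30.9% against 34.7%, TATAAA in 3.09% against 9.47%, and TGACGTCA in 3.09% against 2.26%. Among accessible starts alone the shares were 75.3% against 69.9% for the GC box, 58.4% against 59.4% for any E-box, 9.09% against 9.10% for CAGATG, and 24.7% against 34.8% for CCAAT. For TATAAA they were 2.60% against 5.56%, and for TGACGTCA 3.90% against 2.95%. Among the 20 starts without a summit the GC box was found in 65.0% against 25.8%, any E-box in 65.0% against 77.7%, CAGATG in 5.0% against 19.1% and CCAAT in 55.0% against 34.4%. A match is a description of letters and not of binding.

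**Figure D2:**
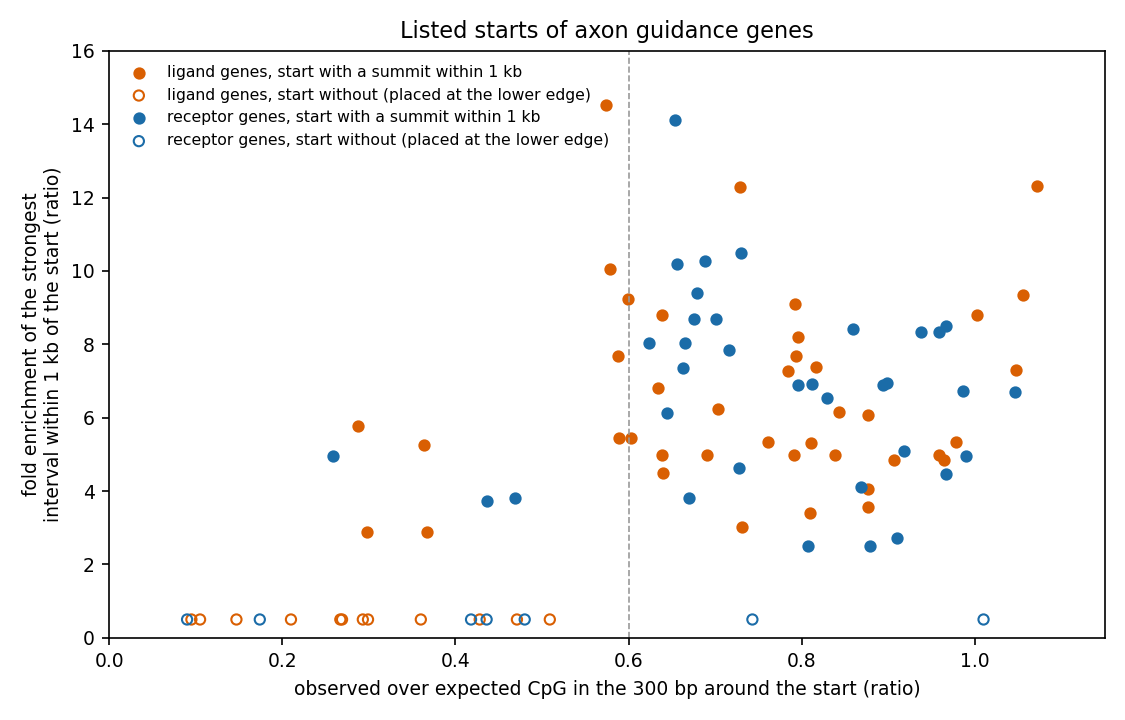
Ratio of observed to expected CpG in the 300 bases around each listed start (horizontal axis) against the fold enrichment of the strongest interval within 1 kb (vertical axis), 1 point per start, with ligands in orange, receptors in blue and starts without a summit as open circles at the bottom. At a ratio of at least 0.6 (dashed line), all 31 ligand starts and 32 of 34 receptor starts had a summit, and below it 9 of 21 and 3 of 8.

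Accessible intervals were frequent inside the genes. The 74 genes held 432 intervals, counted by the strongest summit and by gene, and 14 genes held none (18.9%, against 48.8% of all protein-coding genes). The median was 3.55 intervals per 100 kb of gene, against 0.767 over all protein-coding genes, with 3.63 in ligand genes and 3.40 in receptor genes. The median over all genes includes many short genes, and 72.7% of protein-coding genes under 20 kb held no interval. Pooled over length, the axon guidance genes had 2.88 intervals per 100 kb and all protein-coding genes 2.37, with 3.75 in ligands and 2.32 in receptors. Each gene was therefore set beside the protein-coding genes within a factor of 1.25 of its length. More intervals than the median of those genes were found in 50 of 74 genes (67.6%, against 33.0% of all protein-coding genes), 26 of them ligand and 22 receptor genes. Ligand genes had the higher pooled density in each length class except that from 100 to 300 kb. Over 300 kb, ligand genes pooled to 3.18 intervals per 100 kb and receptor genes to 1.85, with 2.12 over all protein-coding genes of that class. From 100 to 300 kb ligand genes pooled to 4.28 and receptor genes to 4.67, with 2.35 over all genes. From 20 to 50 kb the values were 5.56 and 3.96 with 2.59 over all genes, and from 50 to 100 kb they were 5.07 and 3.46 with 2.25. Under 20 kb they were 4.96 and 4.06 with 3.90.

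**Figure D3:**
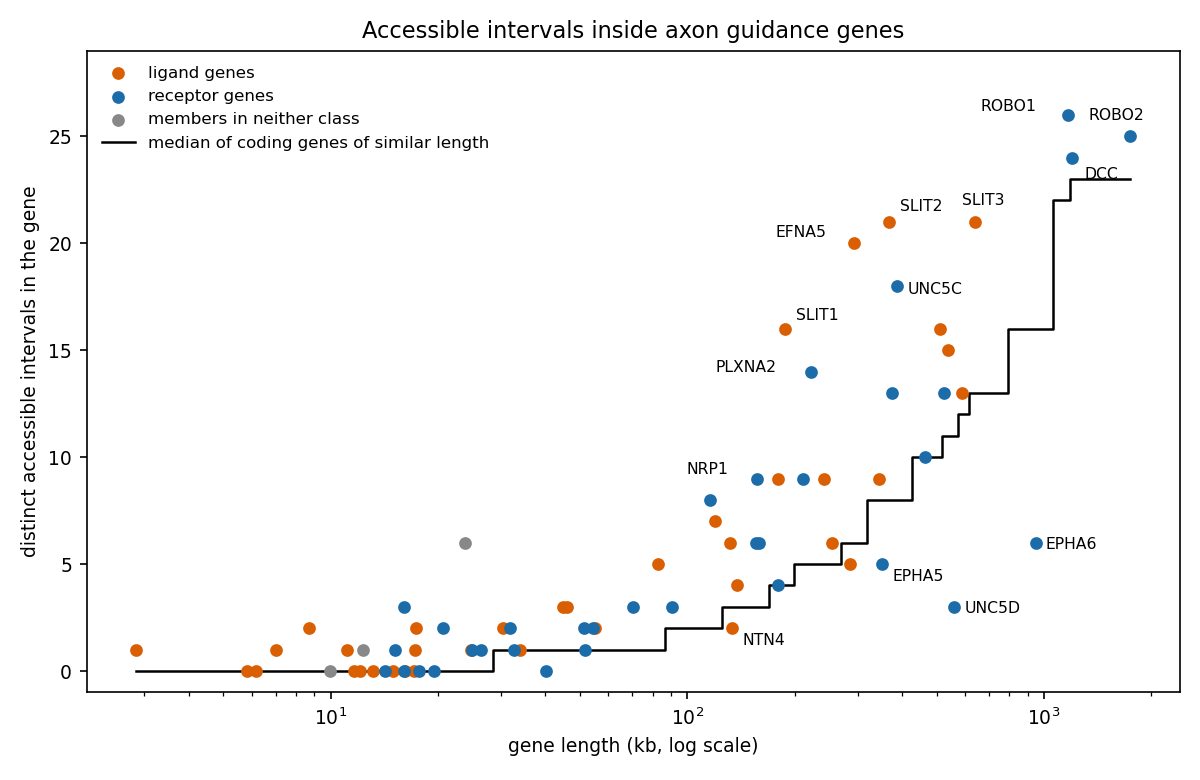
Number of distinct accessible intervals in each axon guidance gene (vertical axis) against gene length (kb, log scale), 1 point per gene, beside the median of all protein-coding genes of similar length. ROBO1 with 26, ROBO2 with 25 and DCC with 24 intervals lie close to the line for genes of their length, SLIT1 with 16 and EFNA5 with 20 lie well above it, and UNC5D with 3 lies below.

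The largest counts were those of ROBO1 with 26 intervals, ROBO2 with 25, DCC with 24, and SLIT2 and SLIT3 with 21 each. For the receptors among them length went with the count, since genes as long as ROBO1, ROBO2 and DCC had medians of 22, 23 and 23. SLIT2 and SLIT3 exceeded the medians of 8 and 13 for their lengths, at the 97.8th and 91.0th percentile. Among genes over 100 kb the highest densities were 8.51 per 100 kb in SLIT1 (16 intervals where the median was 4, the 99.7th percentile of 918 genes), 6.92 in NRP2, 6.80 in EFNA5, 6.30 in PLXNA2 and 5.86 in SEMA5B. These 5 comprise the ligands SLIT1, EFNA5 and SEMA5B and the semaphorin receptors NRP2 and PLXNA2. The opposite was seen in UNC5D, with 3 intervals where similar genes had 11 (2.73rd percentile), and in EPHA6, with 6 against 16 (7.29th percentile). Both had an accessible end, at 9.49-fold and 8.43-fold, below the median of 10.5 over all protein-coding genes with an accessible end. UNC5C, of the same family as UNC5D, held 18 intervals where the median was 8.

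**Figure D4:**
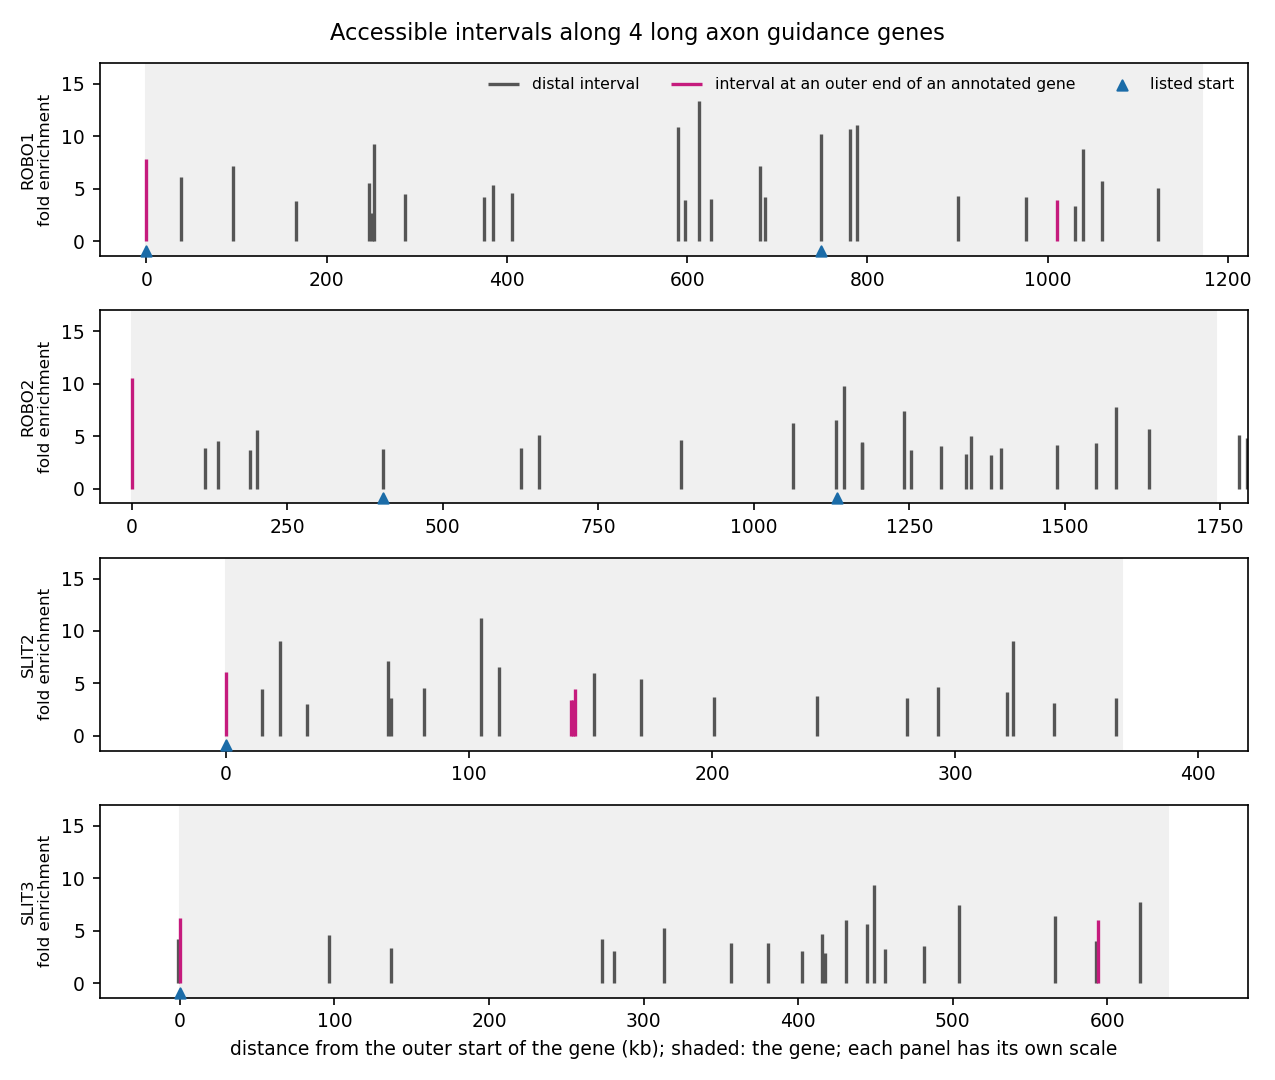
Accessible intervals along ROBO1, ROBO2, SLIT2 and SLIT3, each placed by its distance from the outer start of the gene (kb, horizontal axis, with a separate scale in each panel) and drawn to its fold enrichment (vertical axis); pink lines are intervals at an outer end of any annotated gene, grey lines are distal, and triangles are listed starts. The intervals run along the whole of each gene, and the inner start of ROBO1 at 749 kb carries a taller line (10.2) than its outer start (7.84).

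Distal intervals were defined as those with no summit within 1 kb of an outer end of any annotated gene, and were counted within 50 kb of either outer end. The median was 5 in the axon guidance genes, in the ligand genes and in the receptor genes alike, against 2 over all protein-coding genes. At least 5 distal intervals were present at 41 of the 74 genes (55.4%, against 15.0% of all protein-coding genes), and 52 exceeded the median of genes of similar length (70.3%, against 38.3%). The contrast in genes with at least 5 was small over 300 kb, at 43.8% against 33.9%. It was 31.8% against 7.37% under 20 kb, 58.3% against 12.9% from 20 to 50 kb, 71.4% against 20.9% from 50 to 100 kb and 88.2% against 33.3% from 100 to 300 kb. Over all lengths, the median was 7 annotated gene ends within 50 kb against 9, but this order changed with gene length. The median was higher under 20 kb (13 against 10), from 20 to 50 kb (12 against 8) and from 50 to 100 kb (10 against 8). It was lower from 100 to 300 kb (5 against 7) and over 300 kb (3 against 5). The 328 distinct distal intervals near these genes were of ordinary strength, with a median fold enrichment of 5.12 against 5.10 over all 47693 distal intervals, and a median of 240.5 tags against 199. Starts inside genes count as distal under this definition, and 19 of the 328 (5.79%) lay within 1 kb of a listed start, against 3.47% of all distal intervals.

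**Figure D5:**
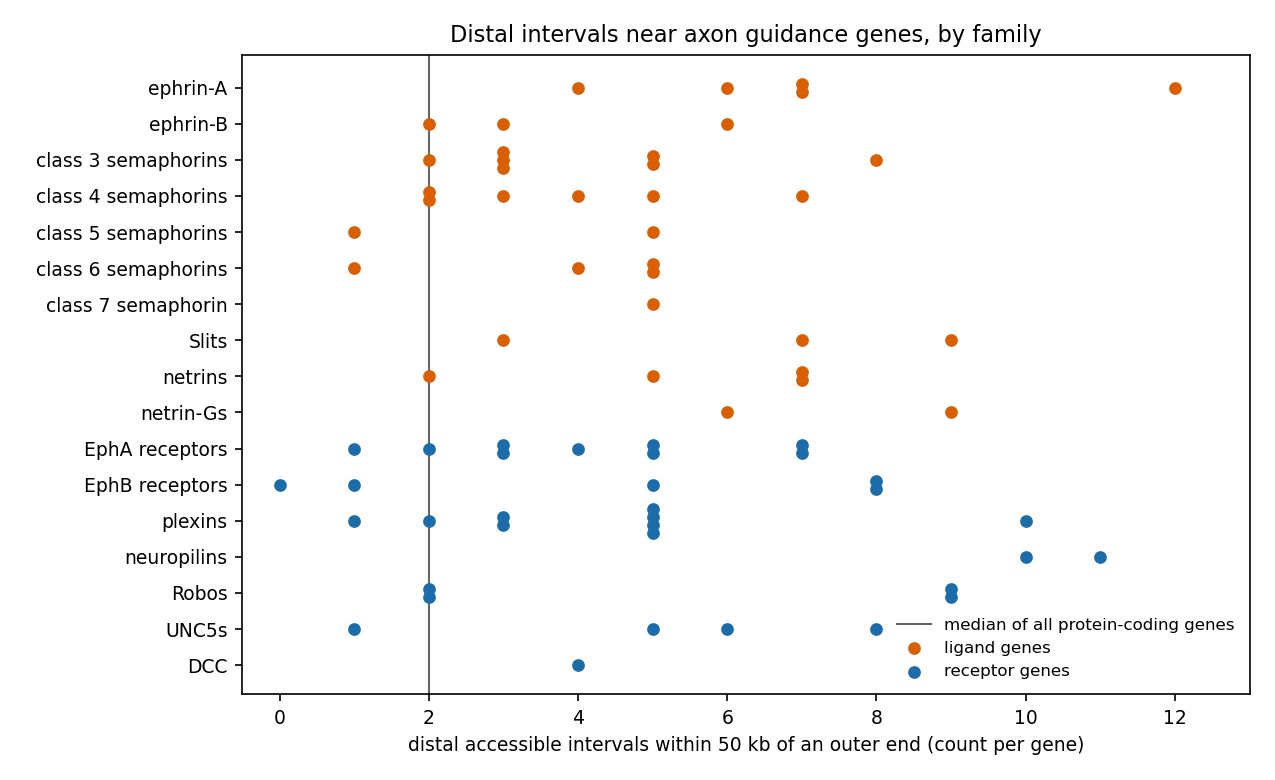
Number of distal accessible intervals within 50 kb of an outer end (horizontal axis), 1 point per gene, by family, with ligands in orange and receptors in blue. EFNA5 has 12, NRP2 has 11, NRP1 and PLXNA2 have 10, and EPHB4 has 0; the median of all protein-coding genes is 2.

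EFNA5, a lipid-anchored ephrin used in topographic maps, had the most distal intervals, 12, of which 7 lay inside the gene, and their fold enrichment ran from 3.56 to 11.8. Both neuropilins followed closely: NRP2 had 11, with 8 inside, and NRP1 had 10, with 5 inside, at medians of 4.46-fold and 4.30-fold. PLXNA2, whose product pairs with neuropilins, also had 10, with 6 inside and up to 10.3-fold enrichment. SLIT1, NTNG2, ROBO3 and ROBO4 had 9 each. ROBO1 and ROBO2 had only 2 each in this window, which reaches 50 kb into genes of 1171 kb and 1743 kb, and DCC had 4. EPHB4 had none, and 6 genes had 1: EPHA5, EPHB6, PLXNA3, SEMA5A, SEMA6C and UNC5D.

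Some neighbouring members share distal intervals, and 17 of the 328 were counted for more than 1 gene. ROBO3 and ROBO4 lie 2.22 kb apart on chromosome 11 and share all 9. EFNA3 and EFNA4 lie 9.28 kb apart on chromosome 1, share all 7 with each other and with the readthrough locus, and share 4 of them with EFNA1, 40.3 kb away.

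The strongest distal interval near a receptor gene was inside EPHA3, 7.12 kb from its start, at chr3:89113814-89115171 (hg38), with 12.9-fold enrichment and 792 tags (738 to 849), close to the 14.1-fold of the start itself. EPHA4 had a distal interval of 12.4-fold and 531 tags at chr2:221606074-221606945, 32.4 kb before its start, above the 6.88-fold at that start. Near PLXNA3, an interval at chrX:154526823-154527930 had 12.4-fold enrichment and 510 tags, but lay 49.6 kb away in surroundings with 25 annotated gene ends. The interval of 12.3-fold at SEMA3C is its inner start, described above. The highest of all, 13.2-fold with 449 tags at chr2:98648879-98649803, lay 31.1 kb from UNC50. Whether exons or introns lie under these intervals was not determined here, and a position near a gene does not show which gene an interval serves.

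Genes that act with these ligands and receptors were looked at in the same way. The list of 60 signalling partners comprised other cues and coreceptors, adhesion molecules and intracellular effectors. Of these, 53 had an accessible end (88.3%, 95% Wilson interval 77.8 to 94.2%), against 68.8% of all protein-coding genes. The share was close to that of the ligand and receptor genes, and the partners were not compared with genes of similar length. The 7 without were ABLIM1, DRAXIN, FLRT2, L1CAM, MICAL1, NGEF and PAK1. High fold enrichment was seen at the adaptor NCK1 (15.0), SRGAP3, which binds Robo receptors (14.5), and the kinase FYN (13.4). Low values were found at the chemokine CXCL12 (3.02) and at FLRT1 (2.81), whose family binds UNC5 receptors.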

How the data were processed

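Per the labels' protocols, ATAC-seq libraries came from 3 biological replicates of KOLF2.1J-hNGN2 neurons at day 14. They were analysed as the 1 list of intervals deposited for them, which the labels name as the optimal set by irreproducible discovery rate. The genome build is hg38, per the submitters' processing notes. The aligner, the peak caller and their settings are not given in the sources used here. Each summit has a deposited fold enrichment, which is a linear ratio, and a deposited −log10 p and −log10 q. A score from 540 to 1000 was also deposited, and its scaling is not given in the sources used here. The list holds no counts. Tag counts were recovered from the ratio and the −log10 p under a Poisson tail with a pseudocount of 1, and lay within 0.0108 of a whole number at every one of the 145092 summits. They are pooled over the replicates, and the depth of each replicate is unknown.

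Summits that share interval bounds were counted as 1 distinct interval, with its strongest summit. Genes came from a RefSeq table for GRCh38.p14, which gives outer ends but no strand or exons. Strands and starts came from the RefSeq promoter table, which matched 63 of the 74 genes. As a check of the build, 68.8% of protein-coding genes had a summit within 1 kb of an end in place, and 13.5% and 12.5% when genes were moved by 100 kb and 1000 kb.

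The genes, the lists and the measures were chosen with earlier results of these data known. Ligand and receptor classes follow the gene names, and UNC50 was placed in neither class after the data were seen. Values are given for the highest and lowest gene of each family at an end, every gene without an accessible end, the 5 with the most intervals, the 5 densest over 100 kb, the 5 with the most distal intervals, DCC, NRP1, NRP2, ROBO1 and ROBO2, members within 50 kb of each other, and the 5 strongest distal intervals. EPHA7 at its end, the readings of UNC5D, UNC5C and EPHA6 inside the gene, the start values, the genes tied at 9 or at 1 distal interval and the partner examples were chosen after their values were seen. The code was tested on simulated data. Computations used Python 3.11.15, numpy 2.4.6, scipy 1.17.1, pandas 2.3.3 and matplotlib 3.10.9. The alternatives varied the score limit, the windows, the unit counted, the neighbouring genes and the definition of a start.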

Additional observations from a re-analysis of the deposited data

How the results depend on the processing

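No paired analysis was possible because there is only 1 group, and its 3 samples have no values of their own, so no replicate could be left out either. Over 91 alternative values of 13 results, 66 stayed within the limits set, 23 moved and 2 reversed. The median of the axon guidance genes stayed above that of all protein-coding genes in 7 of 7 alternatives for distal intervals and in 6 of 6 for density. For density, the all-gene median was 0 with a score of at least 830, with intervals above the median fold enrichment and with distal intervals only. Any median above 0 exceeds it there. The share of the axon guidance genes with an accessible end stayed above that of all protein-coding genes in 8 of 9 alternatives. The exception was the restriction to intervals above the median fold enrichment. It gave accessible ends in 55.4% of the genes, 45.9% of ligand and 64.7% of receptor genes (58.1% of all), 0.725, 0.58 and 0.900 intervals per 100 kb (0 in all), and medians of 2, 2 and 1 distal intervals (1 in all), so the distal median of receptor genes no longer exceeded that of all genes. The density difference of ligand minus receptor genes, 0.23 in the report, became -0.32; the cause was not tested. With any listed start, an alternative chosen after seeing the data, the difference in accessible share, -4.69 percentage points by outer ends, became 6.67; inner starts are counted there and 11 genes without a listed start drop out. Counting every summit gave 8.93, 9.55 and 8.14 per 100 kb and 9, 9 and 9 distal intervals, in the order the whole set, ligand and receptor genes, and distal intervals alone gave 2.20, 2.32 and 2.14 per 100 kb, by construction. Adding 1 kb on both sides gave 5.23 per 100 kb in the set, 5.55 in ligand and 3.77 in receptor genes, with 3.44 in all genes, so receptor genes lay near all genes there. Within 20 kb the distal medians were 2, 2 and 2, and within 100 kb that of ligand genes was 8. Keeping 1 gene per cluster of neighbours and keeping genes of 100 kb and over were also chosen after seeing the data. Intervals at or below the median fold enrichment carry much of the density and of the accessible ends, and an end without a listed interval is not shown to be closed.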

Other observations

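Counted in 5 equal parts, intervals inside the long genes were not concentrated in the part next to the start. Intervals with their strongest summit outside the outer ends are left out, among them those at the outer starts of ROBO1 and DCC. The parts are also too wide to show the first few kb. In the 13 ligand genes of 100 kb and over with a listed strand, the 149 intervals fell into the 5 equal parts of the gene, from start to end, at 20.8%, 20.1%, 17.4%, 24.8% and 16.8%. In the 15 receptor genes the 187 intervals fell at 18.7%, 24.1%, 16.6%, 21.4% and 19.3%. Across 2761 protein-coding genes of that length the parts next to the 2 ends held the most, 22.6% and 21.7%, and the second part the least, 17.9%.

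Around the outer start, intervals 1 to 5 kb upstream numbered 10 at 30 ligand genes (0.333 per gene) and 3 at 30 receptor genes (0.100 per gene), with 0.103 per gene over 15843 protein-coding genes. Within 1 kb of the outer start, on either side, the numbers were 21 and 24 (0.7 and 0.8 per gene, against 0.68). In the first 1 to 5 kb downstream the numbers were 8 and 9 (0.267 and 0.300 per gene, against 0.123). The counts are small and the difference between ligand and receptor genes was not tested.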
